A study of Mus musculus with 8 samples.

Results

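The E2F family and the Rb pocket proteins were followed through sorted mouse regulatory T (Treg) cells with and without the forkhead transcription factor Foxp1. The members were taken by gene symbol from the deposited table of 27594 genes, and all 10 were found there once each. They were the activating factors E2f1, E2f2 and E2f3, the pocket-bound repressive factors E2f4 and E2f5, the atypical repressive factors E2f7 and E2f8, and the pocket proteins Rb1, Rbl1 and Rbl2. RNA was sequenced from rTreg cells (resting, CD4+YFP+CD44lowCD62Lhigh) and aTreg cells (activated, CD4+YFP+CD44highCD62Llow), taken from spleen and peripheral lymph nodes of C57BL/6 mice aged 6 to 8 weeks. The WT mice carried Foxp3-YFP-Cre alone, and the Foxp1-deficient mice carried Foxp1 fl/fl with Foxp3-YFP-Cre. Both genotypes therefore expressed Cre and YFP from the Foxp3 locus, in every cell that was sorted. There were 2 libraries in each of the 4 groups, 8 in all, and the labels do not give the number of mice behind a library, so p-values measure the spread between these libraries.

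E2F proteins bind DNA with a DP partner and set the expression of genes for DNA synthesis and mitosis. In resting cells, pocket proteins cover the activating factors or are bound by E2F4 and E2F5 at silenced promoters. The latter complexes include DREAM, which also holds the MuvB core. Cyclin-dependent kinases phosphorylate the pocket proteins at entry into the cycle, which frees the activating factors, and E2F7 and E2F8, which bind DNA without a DP partner or a pocket protein, later turn the same genes down. Several members are themselves E2F target genes. The comparison of genotypes asks whether loss of Foxp1, a factor linked to T cell quiescence, alters this machinery, and the comparison of rTreg with aTreg cells shows how it differs between resting and activated cells.

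The promoter windows of the members are shown because several members are themselves E2F target genes. RefSeq windows of 300 bases, from 250 before to 50 after a start site on build GRCm38.p6, were found for 7 of the 10 members (E2f1, E2f2, E2f3, E2f7, E2f8, Rbl1 and Rbl2), with 9 windows between them. The E2F motif was searched on both strands as TTTCGCGC, TTTGGCGC or TTTCCCGC, and a window was counted once however many forms overlapped in it. A match was found in 1 window each of E2f2, E2f3, E2f7 and Rbl1, and in no window of E2f1, E2f8 or Rbl2. Whether a match went with a change of the gene was not tested. Over all 32851 RefSeq promoter windows of this length, 1.84% held one of the forms (0.323% TTTCGCGC, 0.514% TTTGGCGC and 1.07% TTTCCCGC). The forkhead motif TGTTTAC, which 3.65% of all windows held, was in none of the 9. The windows follow, 5′ to 3′ on the strand of the gene, with the E2F match in capitals. E2f8, the close relative of E2f7, is printed as a window without a match. Position 1 is the start site.
E2f2 (chr4:136172024-136172323, plus strand, TTTGGCGC from position 40): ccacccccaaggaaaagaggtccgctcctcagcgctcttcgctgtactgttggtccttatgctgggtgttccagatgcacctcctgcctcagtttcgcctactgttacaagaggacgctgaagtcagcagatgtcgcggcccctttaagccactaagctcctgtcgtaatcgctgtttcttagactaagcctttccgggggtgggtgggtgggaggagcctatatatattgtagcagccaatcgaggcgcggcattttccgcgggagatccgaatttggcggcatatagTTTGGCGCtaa
E2f3 (chr13:29986014-29986313, minus strand, TTTCCCGC read on the opposite strand from position -11): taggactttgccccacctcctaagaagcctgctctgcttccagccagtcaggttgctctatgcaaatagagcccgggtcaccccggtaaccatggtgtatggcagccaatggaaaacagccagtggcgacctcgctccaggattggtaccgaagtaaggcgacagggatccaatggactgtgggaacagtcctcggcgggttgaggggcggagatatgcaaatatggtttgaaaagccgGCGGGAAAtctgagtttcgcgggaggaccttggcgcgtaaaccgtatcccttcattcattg
E2f7 (chr10:110745189-110745488, plus strand, TTTCCCGC read on the opposite strand from position -198): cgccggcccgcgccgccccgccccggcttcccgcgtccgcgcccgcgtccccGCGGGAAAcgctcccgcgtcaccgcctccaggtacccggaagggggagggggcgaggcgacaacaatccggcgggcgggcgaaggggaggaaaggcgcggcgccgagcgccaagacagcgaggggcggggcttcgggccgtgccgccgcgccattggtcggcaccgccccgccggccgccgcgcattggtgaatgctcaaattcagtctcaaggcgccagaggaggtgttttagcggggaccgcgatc
Rbl1 (chr2:157204485-157204784, minus strand, TTTCGCGC from position -18): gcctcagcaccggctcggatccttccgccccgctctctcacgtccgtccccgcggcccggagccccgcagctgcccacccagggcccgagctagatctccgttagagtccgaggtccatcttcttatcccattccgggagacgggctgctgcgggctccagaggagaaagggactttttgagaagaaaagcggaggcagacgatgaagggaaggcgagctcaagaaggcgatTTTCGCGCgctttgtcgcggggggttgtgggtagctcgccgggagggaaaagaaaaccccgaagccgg
E2f8 (chr7:48881547-48881846, minus strand, no match): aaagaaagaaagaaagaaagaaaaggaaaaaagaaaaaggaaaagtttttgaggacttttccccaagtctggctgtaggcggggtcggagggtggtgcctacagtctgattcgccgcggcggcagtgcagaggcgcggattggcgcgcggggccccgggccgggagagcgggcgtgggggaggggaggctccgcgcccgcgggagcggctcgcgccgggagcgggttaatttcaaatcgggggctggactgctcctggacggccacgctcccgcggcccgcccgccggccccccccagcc

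These 5 windows lie at the outermost start of the gene in GENCODE M21, except that the E2f2 start site in RefSeq is 120 bases further upstream. For E2f1 the single RefSeq start site lies 466 bases inside the GENCODE gene, so the window searched was not the sequence at the GENCODE start. A match is a description of the letters, and the absence of a match says only that these letters were not in the window.

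In GENCODE M21 on GRCm38, E2f1 (ENSMUSG00000027490) lies at chr2:154559407-154569892, E2f2 (ENSMUSG00000018983) at chr4:136172394-136196057 and E2f3 (ENSMUSG00000016477) at chr13:29906575-29986063. E2f4 (ENSMUSG00000014859) lies at chr8:105297663-105305370, E2f5 (ENSMUSG00000027552) at chr3:14578641-14606309, E2f7 (ENSMUSG00000020185) at chr10:110745439-110787384 and E2f8 (ENSMUSG00000046179) at chr7:48866429-48881596. Of the pocket proteins, Rb1 (ENSMUSG00000022105) lies at chr14:73183673-73325822, Rbl1 (ENSMUSG00000027641) at chr2:157145893-157204534 and Rbl2 (ENSMUSG00000031666) at chr8:91070057-91123844. Genes on the opposite strand share 21% of the exon bases of Rbl2 (with Aktip and Gm45464), 14.9% of Rb1 (with Rcbtb2 and Lpar6), 11.2% of E2f8 (with Gm2788) and 1.46% of E2f5. The library kit named in the labels does not mark strand, so reads in those bases cannot be told apart.

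Between 6373170 and 15268623 reads were counted on genes in a library, and 3 counts, taken as the floor, were worth 0.196 to 0.471 CPM (the count scaled to a fixed library total). All 10 members passed the filter on low counts, as did 14540 genes in all. CPM values below are scaled by TMM normalization. Differences are log2 fold changes from edgeR's quasi-likelihood test in 1 fit of the 8 libraries with the replicate number as a block. Benjamini-Hochberg adjustment was over all genes tested. Standard errors (SE) are not given by this test and were derived from its F statistic and the fitted difference before edgeR's shrinkage. Calls required an adjusted p under 0.05 together with a change of at least 1.5-fold for genotype or 2-fold for subset. The Treg markers (Foxp3, Il2ra, Ctla4, Ikzf2, Cd4 and Cd3e) had counts in every group, and Cd44 followed the sort gates. Foxp1 itself, counted over the whole gene, did not pass edgeR's test between genotypes in rTreg cells (log2 fold change -0.12, adjusted p = 0.460). It had 353 and 384 CPM in WT and 342 and 338 CPM in Foxp1-deficient rTreg libraries. In aTreg cells it passed (-1.03, adjusted p = 0.00194). The labels of the rTreg libraries were thus not checked by the targeted gene. The paper reports complete deletion of Foxp1 in YFP+ Treg cells of these mice, by immunoblot, mRNA and staining. In each group, Xist had at most 3 counts in replicate 1 and at least 15098 in replicate 2, so sex went with the replicate number. The block takes up a sex difference that the groups share, and not one that differs between groups.

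Granulocyte and precursor markers were higher in Foxp1-deficient than in WT rTreg libraries and overlapped between the genotypes in aTreg cells. The summed level of the 10 markers was 0.157 to 1.66 CPM in WT rTreg cells, where Ctsg, Elane, Lcn2, Mpo and Prtn3 were at 0 in both libraries. It was 9.53 to 24.1 CPM in Foxp1-deficient rTreg cells, 3.18 to 4.87 CPM in WT aTreg cells and 4.82 to 38.6 CPM in Foxp1-deficient aTreg cells, with all 10 markers counted in each of these groups. Myeloid markers (7 genes) summed to 1.41 to 1.75, 2.24 to 7.17, 3.18 to 3.40 and 3.31 to 7.38 CPM in the same order. B cell markers (7 genes) went with the subset, at 8.47 to 11.0 CPM in the rTreg groups and 33.7 to 39.5 CPM in the aTreg groups. Erythroid markers (8 genes) went the other way, from 31.1 to 62.1 CPM in rTreg cells to 5.18 to 16.1 CPM in aTreg cells. The part of other cells in the differences below was not tested. Fewer cells of a type and less RNA per cell cannot be told apart in these bulk samples.

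Compared per length, as the authors' FPKM, E2f4 was the most abundant member in every group, from 51.7 ± 7.33 FPKM in WT rTreg cells to 57.0 ± 1.53 FPKM in Foxp1-deficient aTreg cells (SD, n = 2 each). In WT rTreg cells the next were Rb1 (16.3 ± 0.908), Rbl2 (14.6 ± 0.630), Rbl1 (14.0 ± 0.673) and E2f2 (12.0 ± 0.521 FPKM), and of these neighbours Rbl2 and Rbl1 lay within their spread of each other. E2f5 (7.35 ± 0.301), E2f3 (2.66 ± 0.695) and E2f1 (0.890 ± 0.0109) followed, and E2f8 (0.0637 ± 0.0304) and E2f7 (0.0282 ± 0.00382 FPKM) were at the bottom. In the aTreg groups Rbl2 took the second place and E2f2 the third, while E2f8 and E2f7 stayed the ninth and the tenth in all 4 groups. E2f2 made up 65.7% to 79.1% of the summed FPKM of the activating factors, and E2f4 86.5% to 92.6% of that of the repressive factors, over the 8 libraries.

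**Figure D1:**
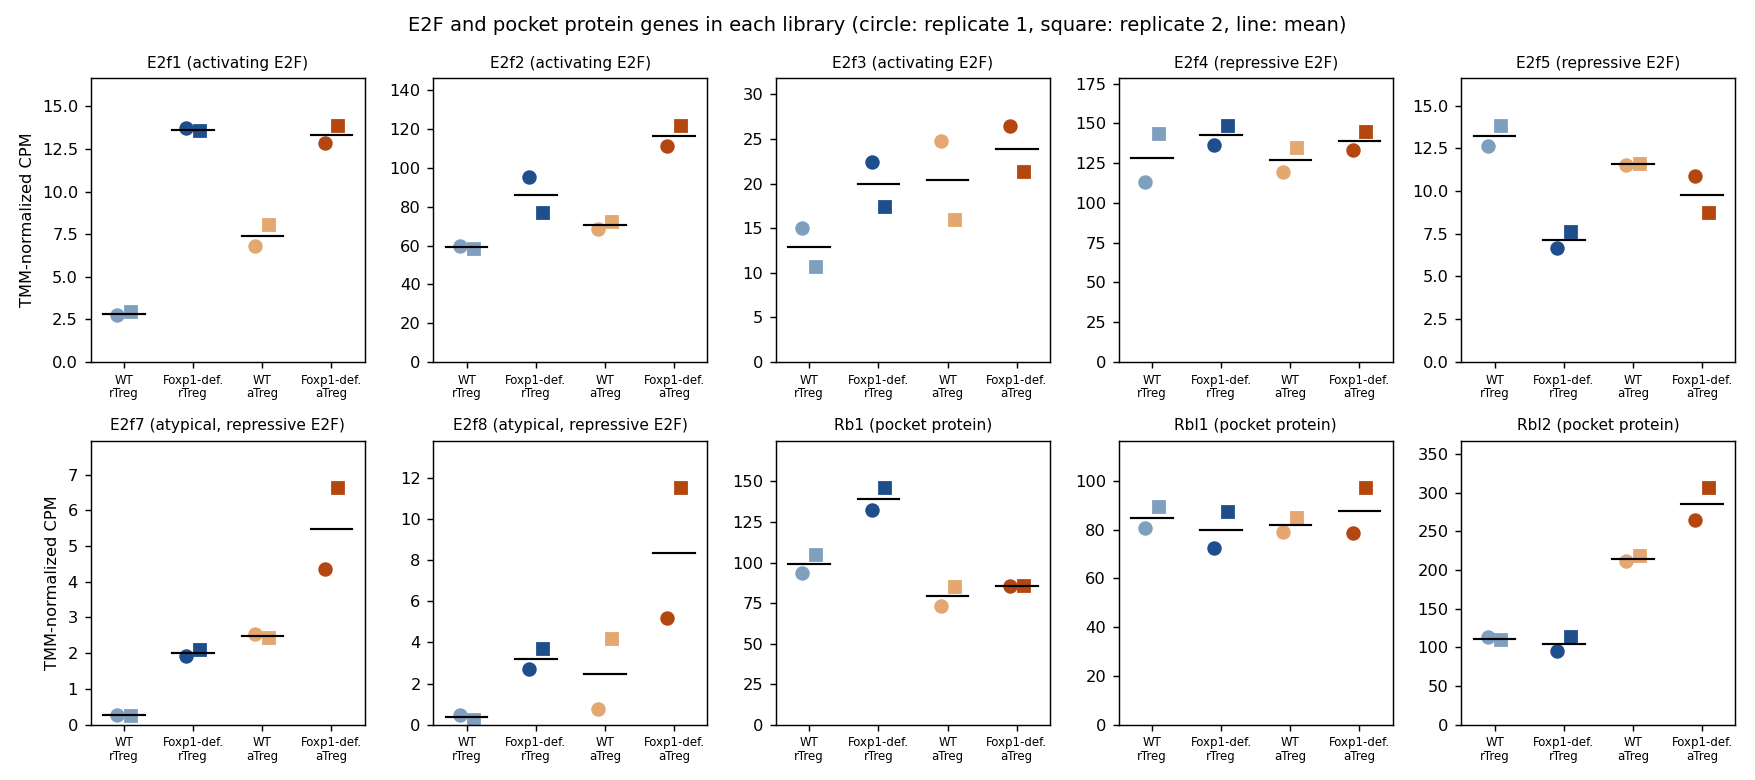
TMM-normalized CPM of each member in the 8 libraries, with a panel and a linear axis from 0 for each gene. Circles are replicate 1, squares replicate 2 and lines the mean of 2, and E2f1 sits near 3 CPM in WT rTreg cells and between 12.8 and 13.9 CPM in all 4 Foxp1-deficient libraries, and Rbl2 separates aTreg from rTreg cells.

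In rTreg cells, loss of Foxp1 went with higher E2f1, E2f3, E2f7 and E2f8 and lower E2f5. These are 4 of 10 members called higher, where 2.90% of all genes tested were, and 1 of 10 called lower, where 2.70% of all genes were. The median log2 fold change of the 10 members was 0.51, against 0.0029 over all genes tested, and 7 of the 10 had groups that did not overlap, where 45.2% of all genes tested did not. E2f2 and Rb1 passed the adjusted p and stayed under 1.5-fold.

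E2f1, the best known activator of S phase genes, had 2.76 and 2.91 CPM in the WT rTreg libraries (30 and 37 counts) and 13.7 and 13.6 CPM in the Foxp1-deficient ones (86 and 188 counts). Both Foxp1-deficient libraries stood far above both WT libraries, and each pair lay close together. The log2 fold change was 2.26 ± 0.17 (SE), 4.78-fold (adjusted p = 5.4e-04), and E2f1 was called in all 14 alternatives tried, with adjusted p from 5.4e-11 to 0.0126. For E2f3, an activator with more than 1 promoter and protein form, the values were 15.0 and 10.7 CPM in WT and 22.5 and 17.4 CPM in Foxp1-deficient rTreg libraries. Replicate 1 was above replicate 2 in both genotypes, so the groups separated by little, and the log2 fold change was 0.65 ± 0.13 (adjusted p = 0.0190, or 0.310 without the replicate block). The call of E2f3 was also lost when any 1 of the 4 rTreg libraries was left out (adjusted p from 0.0761 to 0.170). E2f2, the most abundant activator in these cells, had 59.9 and 58.2 CPM in WT and 95.1 and 76.7 CPM in Foxp1-deficient rTreg libraries. The groups did not overlap, and the difference of 0.53 ± 0.11 (adjusted p = 0.0199) was 1.44-fold and not called.

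The repressive factors differed among themselves. E2f4, which with p130 occupies silenced promoters in resting cells, had 113 and 143 CPM in WT and 136 and 149 CPM in Foxp1-deficient rTreg libraries, groups that overlap (log2 fold change 0.16 ± 0.072, adjusted p = 0.206). E2f5, its closest relative, had 12.6 and 13.8 CPM in WT against 6.69 and 7.58 CPM in Foxp1-deficient rTreg libraries. It was the single member that fell, by 0.87 on the log2 scale (SE 0.17, 1.83-fold, adjusted p = 0.0199, or 0.0614 without the replicate block). This call too was lost when any 1 of the 4 rTreg libraries was left out (adjusted p from 0.0670 to 0.157).

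The atypical factors were near the floor in WT rTreg cells. E2f7 had 3 and 3 counts there (0.276 and 0.236 CPM) and 12 and 29 counts in Foxp1-deficient rTreg cells (1.91 and 2.09 CPM). Since both WT libraries were at the floor, the ratio is given from the summed counts, 41 against 6, as 8.01 with an exact 95% interval of 3.38 to 23.1 for counting error alone. E2f8 had 5 and 3 counts in WT (0.461 and 0.236 CPM) and 17 and 51 in Foxp1-deficient rTreg libraries (2.71 and 3.68 CPM), a ratio of 9.96 with an exact interval of 4.78 to 24.0 for counting error. In edgeR's fit the adjusted p was 0.00823 for E2f7 and 0.0230 for E2f8, the latter 0.141 without the replicate block. The call of E2f7 was lost in 2 and that of E2f8 in 4 of the 14 alternatives tried.

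Of the pocket proteins in rTreg cells, Rb1, the retinoblastoma protein, had 93.8 and 105 CPM in WT and 132 and 146 CPM in Foxp1-deficient libraries, a difference of 0.49 ± 0.069 (1.40-fold, adjusted p = 0.00582) that stayed under the fold threshold. Rbl1 (p107), which dividing cells express most, had 80.5 and 89.1 against 72.5 and 87.1 CPM, and Rbl2 (p130), the pocket protein typical of quiescent cells, 113 and 109.8 against 95.6 and 113 CPM. Both pairs of groups overlapped, with log2 fold changes of -0.088 ± 0.072 for Rbl1 (adjusted p = 0.475) and -0.092 ± 0.082 for Rbl2 (adjusted p = 0.511). Without the replicate block, 2 members were called in this comparison (E2f1 and E2f7). When a library was left out, 3 were called without WT replicate 1, 1 without WT replicate 2, and 2 without either Foxp1-deficient replicate.

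**Figure D2:**
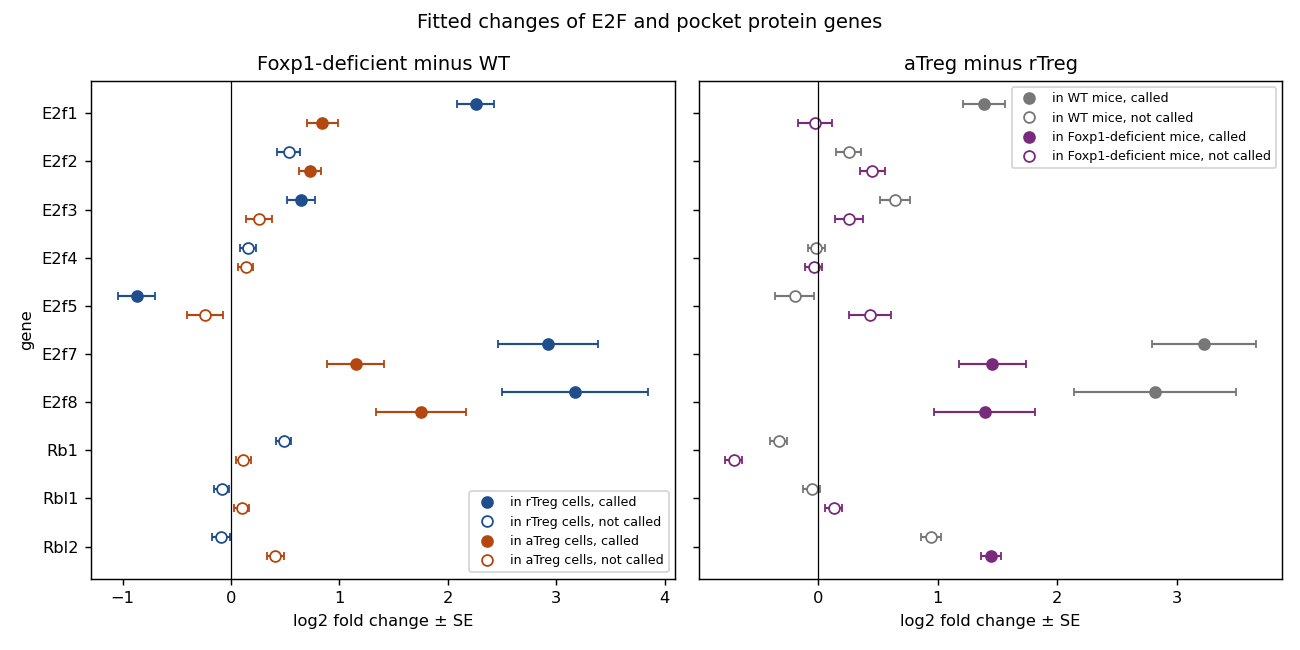
Fitted log2 fold change of each member with its standard error, on the left between genotypes in rTreg and aTreg cells and on the right between aTreg and rTreg cells in each genotype, with filled points for called genes. E2f1 changed by 2.26 in rTreg and 0.84 in aTreg cells between genotypes, and E2f4 lies within 0.16 of 0 in each comparison drawn.

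In aTreg cells, loss of Foxp1 went with higher E2f1, E2f2, E2f7 and E2f8. They are 4 of 10 members called higher, against 2.37% of all genes tested, and 0 of 10 were called lower, against 1.66% of all genes. The member median was 0.33 on the log2 scale and that of all genes 0.0018, and 7 of 10 members had groups that did not overlap, against 41.8% of all genes tested.

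E2f1 had 6.80 and 8.01 CPM in WT aTreg libraries and 12.8 and 13.9 CPM in Foxp1-deficient ones, a log2 fold change of 0.84 ± 0.15 (1.79-fold, adjusted p = 0.0180, or 0.0918 without the block). E2f2 had 68.5 and 72.3 CPM in WT and 112 and 122 CPM in Foxp1-deficient aTreg libraries, with little spread in either group. Its log2 fold change was 0.73 ± 0.10 (1.66-fold, adjusted p = 0.00883, or 0.0513 without the block). The call of E2f1 was lost in 6 and that of E2f2 in 2 of the 14 alternatives tried. With a library left out, the log2 fold change of E2f1 ranged from 0.77 to 0.94. E2f3 had 24.8 and 15.9 CPM in WT against 26.5 and 21.3 CPM in Foxp1-deficient aTreg libraries, groups that overlap (0.26 ± 0.12, adjusted p = 0.239).

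E2f7 had 23 and 38 counts in WT aTreg libraries (2.52 and 2.44 CPM) and 52 and 92 in Foxp1-deficient ones (4.36 and 6.61 CPM), a log2 fold change of 1.15 ± 0.26 (adjusted p = 0.0425, or 0.181 without the block). For E2f8 the WT aTreg libraries were far apart, at 7 and 65 counts (0.768 and 4.17 CPM), and the Foxp1-deficient ones had 62 and 160 counts (5.20 and 11.5 CPM). Replicate 2 was the higher library in both genotypes, and the log2 fold change was 1.75 ± 0.41 (adjusted p = 0.0475, or 0.378 without the block). The call of E2f7 was lost in 11 and that of E2f8 in 10 of the 14 alternatives tried.

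E2f5 had 11.5 and 11.6 CPM in WT and 10.9 and 8.70 CPM in Foxp1-deficient aTreg libraries (-0.24 ± 0.16, adjusted p = 0.424), and E2f4 had 119 and 135 against 133 and 145 CPM (0.13 ± 0.072, adjusted p = 0.313). Rbl2 had 212 and 218 CPM in WT and 265 and 305 CPM in Foxp1-deficient aTreg libraries, a difference of 0.41 ± 0.079 that passed the adjusted p (0.0256) and stayed at 1.33-fold. Rb1 (73.4 and 84.8 against 85.3 and 85.3 CPM) and Rbl1 (79.1 and 84.6 against 78.5 and 96.9 CPM) did not pass the test, with adjusted p = 0.392 and 0.470. Without the replicate block none of the 10 was called here. Leaving out a library gave 2 calls without either Foxp1-deficient rTreg replicate, 1 without either WT aTreg replicate or Foxp1-deficient aTreg replicate 1, and 0 without Foxp1-deficient aTreg replicate 2.

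Whether genotype acted differently in the 2 subsets was tested with the interaction term of the fit. No member was called at an adjusted p under 0.05, where 0.330% of all genes tested were. At an unadjusted p under 0.05 there were 5 of 10 (E2f1, E2f5, E2f7, Rb1 and Rbl2, named after their values were seen), where 12.8% of all genes tested were, and DESeq2 and edgeR with no filter on low counts each called 2 (E2f1 and Rbl2). For E2f1 the effect in aTreg minus that in rTreg cells was -1.41 ± 0.23 (adjusted p = 0.0531), with -1.36 in the pair of replicate 1 and -1.40 in that of replicate 2. For Rbl2 it was 0.50 ± 0.11 (adjusted p = 0.115), and for E2f5 0.63 ± 0.24 (adjusted p = 0.326). The effects shown for E2f1 in rTreg and aTreg cells were thus not shown to differ by edgeR's test at this threshold.

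Between WT aTreg and WT rTreg cells, E2f1, E2f7 and E2f8 were called higher in the aTreg libraries. This is 3 of 10 members, against 9.50% of all genes tested, and 0 of 10 were called lower, against 2.83%. The member median was 0.45 on the log2 scale (-0.0046 over all genes), and 8 of the 10 had groups that did not overlap, against 56.9% of all genes. E2f1 rose from 2.76 and 2.91 CPM to 6.80 and 8.01 CPM, a log2 fold change of 1.39 ± 0.18 (adjusted p = 8.4e-04). E2f7 rose from 3 and 3 counts to 23 and 38, a ratio of summed counts of 9.70 with an exact 95% interval of 4.21 to 27.5 for counting error (adjusted p = 0.00107 in edgeR's fit). E2f8 went from 5 and 3 to 7 and 65 counts, so that the difference rests on replicate 2. Its adjusted p of 0.0152 became 0.0758 without the block and 0.229 without WT aTreg replicate 2.

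Rbl2 was at 113 and 109.8 CPM in WT rTreg and 212 and 218 CPM in WT aTreg libraries. The log2 fold change of 0.95 ± 0.081 (1.93-fold, adjusted p = 1.3e-04) fell just under the 2-fold threshold, which it passed without WT rTreg replicate 1 (1.06, adjusted p = 7.9e-04). E2f3 (0.65 ± 0.12, adjusted p = 0.00610) and Rb1 (-0.33 ± 0.069, adjusted p = 0.00947) also passed the adjusted p and not the fold. E2f2 (0.26 ± 0.11), E2f4 (-0.011 ± 0.072), E2f5 (-0.19 ± 0.16) and Rbl1 (-0.051 ± 0.071) did not pass the test, with adjusted p from 0.102 to 0.924.

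Between the subsets of Foxp1-deficient mice, E2f7, E2f8 and Rbl2 were called higher in aTreg cells, 3 of 10 members against 11.3% of all genes, and 0 of 10 were called lower, against 4.39%. The member median was 0.35 (-0.018 over all genes), and 6 of the 10 had groups that did not overlap, which is near the 61.7% of all genes. Rbl2 rose from 95.6 and 113 CPM to 265 and 305 CPM, a log2 fold change of 1.45 ± 0.082 (2.72-fold, adjusted p = 1.3e-05), and was called in all 14 alternatives. Rb1 went the other way, from 132 and 146 CPM to 85.3 and 85.3 CPM (-0.70 ± 0.069, adjusted p = 1.7e-04), 1.63-fold and under the threshold. E2f1 overlapped between the subsets of these mice, at 13.7 and 13.6 CPM in rTreg and 12.8 and 13.9 CPM in aTreg libraries (-0.025 ± 0.14, adjusted p = 0.958).

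E2f7 rose from 12 and 29 counts to 52 and 92 (1.46 ± 0.28, adjusted p = 0.00467) and E2f8 from 17 and 51 to 62 and 160 counts (1.39 ± 0.42, adjusted p = 0.0322, or 0.203 without the block). These calls were lost in 2 (E2f7) and 6 (E2f8) of the 14 alternatives tried. E2f2 passed the adjusted p at 1.37-fold (0.45 ± 0.10, adjusted p = 0.00978). E2f3 (0.26 ± 0.12), E2f4 (-0.034 ± 0.072), E2f5 (0.43 ± 0.18) and Rbl1 (0.13 ± 0.072) did not pass the test, with adjusted p from 0.0879 to 0.738. Without Foxp1-deficient rTreg replicate 2, or without Foxp1-deficient aTreg replicate 2, 1 member was called. The comparisons of subsets share their libraries with the comparisons of genotypes, so the values are set side by side and no agreement between them is drawn.

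The balance of activating to repressive factors was described as the ratio of their summed FPKM, with no test. The activating sum was 16.4 and 14.7 FPKM in WT rTreg, 28.1 and 22.8 in Foxp1-deficient rTreg, 22.0 and 21.1 in WT aTreg and 33.4 and 33.2 FPKM in Foxp1-deficient aTreg libraries. The repressive sum moved less, between 53.8 and 65.7 FPKM over all 8 libraries. The log2 ratio averaged -1.93 in WT rTreg, -1.27 in Foxp1-deficient rTreg, -1.49 in WT aTreg and -0.96 in Foxp1-deficient aTreg cells, so that repressive mRNA was the larger sum in each group. The ratio was lowest in the WT rTreg libraries (0.305 and 0.228) and highest in the Foxp1-deficient aTreg libraries (0.525 and 0.506), while WT aTreg (0.385 and 0.331) and Foxp1-deficient rTreg libraries (0.475 and 0.360) overlapped. The sign rests on E2f4, and so does which group was highest. With E2f4 left out of the repressive sum, the mean log2 ratio was 1.06, 2.43, 1.54 and 2.12 in the same order. The ratio was then highest in Foxp1-deficient rTreg libraries (2.67 and 2.19), followed by Foxp1-deficient aTreg libraries (2.10 and 2.13). Foxp1-deficient rTreg no longer overlapped with WT aTreg libraries (1.63 and 1.45).

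**Figure D3:**
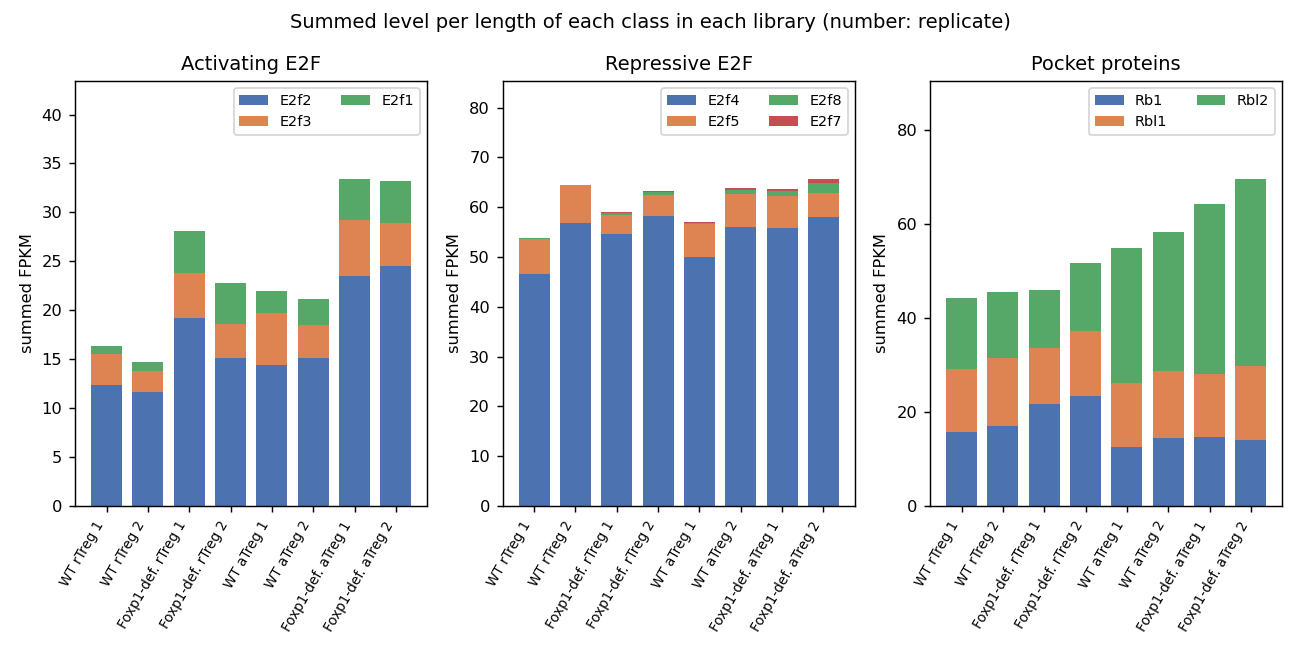
Summed FPKM of the activating E2F, the repressive E2F and the pocket proteins in each of the 8 libraries, stacked by gene. E2f2 makes up most of the activating sum and E2f4 most of the repressive sum, and the Rbl2 part of the pocket proteins is 27.1% to 34.0% in rTreg libraries and 50.5% to 57.1% in aTreg libraries.

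Among the pocket proteins the make-up differed by subset. Rbl2 was 34.0% and 31.0% of their summed FPKM in WT rTreg, 27.1% and 27.9% in Foxp1-deficient rTreg, 52.4% and 50.5% in WT aTreg, and 56.2% and 57.1% in Foxp1-deficient aTreg libraries. The summed level went from 44.3 and 45.6 FPKM in WT rTreg to 64.2 and 69.6 FPKM in Foxp1-deficient aTreg libraries.

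The partners through which the members act were followed as lists. Of the DP partners, Tfdp1, which dimerizes with E2F proteins, went from 49.9 and 48.6 CPM in WT to 62.8 and 77.5 CPM in Foxp1-deficient rTreg libraries (0.52 ± 0.089, adjusted p = 0.0122, under 1.5-fold), and Tfdp2 had -0.26 ± 0.084 (adjusted p = 0.0890). Of the 8 genes of the MuvB core and its MYB and FOXM1 partners, 2 were called higher in each genotype comparison. Of all genes tested, 2.90% were called higher in rTreg and 2.37% in aTreg cells. Mybl2 (B-MYB), itself a classical E2F target, rose by 0.67 ± 0.18 in rTreg (adjusted p = 0.0476) and 0.82 ± 0.16 in aTreg cells (adjusted p = 0.0263). Foxm1, an activator of mitotic genes, rose by 0.94 ± 0.25 (adjusted p = 0.0491) and 1.04 ± 0.22 (adjusted p = 0.0325). None of the 8 chromatin partners of pocket proteins, among them the histone deacetylases, was called in any of the 4 comparisons of groups. Over these comparisons, 2.37% to 11.3% of all genes were called higher and 1.66% to 4.39% lower.

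Of 15 G1 cyclins, CDKs and CDK inhibitors, 14 were tested and 1 was called higher in Foxp1-deficient rTreg cells, against 2.90% of all genes. It was Cdkn2c, which encodes the CDK4 and CDK6 inhibitor p18 (1.14 ± 0.29, adjusted p = 0.0451). In aTreg cells 2 were called higher, against 2.37% of all genes. In the comparisons of subsets, 3 were called higher in aTreg cells of each genotype and 1 was called lower in WT. Of all genes tested, 9.50% (WT) and 11.3% (Foxp1-deficient) were called higher, and 2.83% lower in WT.

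Of 34 G1/S target genes of E2F, 13 were called higher and 0 lower in Foxp1-deficient rTreg cells. Over all genes tested, 2.90% were called higher and 2.70% lower. Of the 34, 33 had a log2 fold change above 0, and the median was 0.60 against 0.0029 over all genes. Mcm10, a replication initiation factor, rose by 2.75 ± 0.53, Rrm2, a subunit of ribonucleotide reductase, by 1.80 ± 0.17, and Cdc6, which loads the MCM helicase, by 1.78 ± 0.23 (adjusted p from 0.00112 to 0.0180). In aTreg cells 8 of the 34 were called higher, against 2.37% of all genes, with a median of 0.51. Of 22 G2/M genes that DREAM is known to hold down, 18 were called higher and 0 lower in Foxp1-deficient rTreg cells. The shares of all genes were 2.90% and 2.70%, as above. All 22 had a log2 fold change above 0, with a median of 2.32. Tpx2, a spindle assembly factor, rose by 3.81 ± 0.45, the kinase Aurkb by 3.49 ± 0.41, the checkpoint kinase Ttk by 3.48 ± 0.76 and the spindle motor Kif11 by 3.33 ± 0.27 (adjusted p from 6.98e-04 to 0.0246). In aTreg cells 19 of the 22 were called higher, against 2.37% of all genes, with a median of 1.43. Without the replicate block, 7 of the G1/S and 6 of the G2/M genes were called in rTreg cells and 0 of either list in aTreg cells. In rTreg cells, 2 and 6 were called without WT replicate 2, 7 and 7 without Foxp1-deficient replicate 2, and 7 of the G1/S genes without Foxp1-deficient replicate 1. In aTreg cells, 2 and 5 were called without Foxp1-deficient replicate 2, 4 and 11 without Foxp1-deficient replicate 1, and 4 of the G1/S genes without WT replicate 1.

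**Figure D4:**
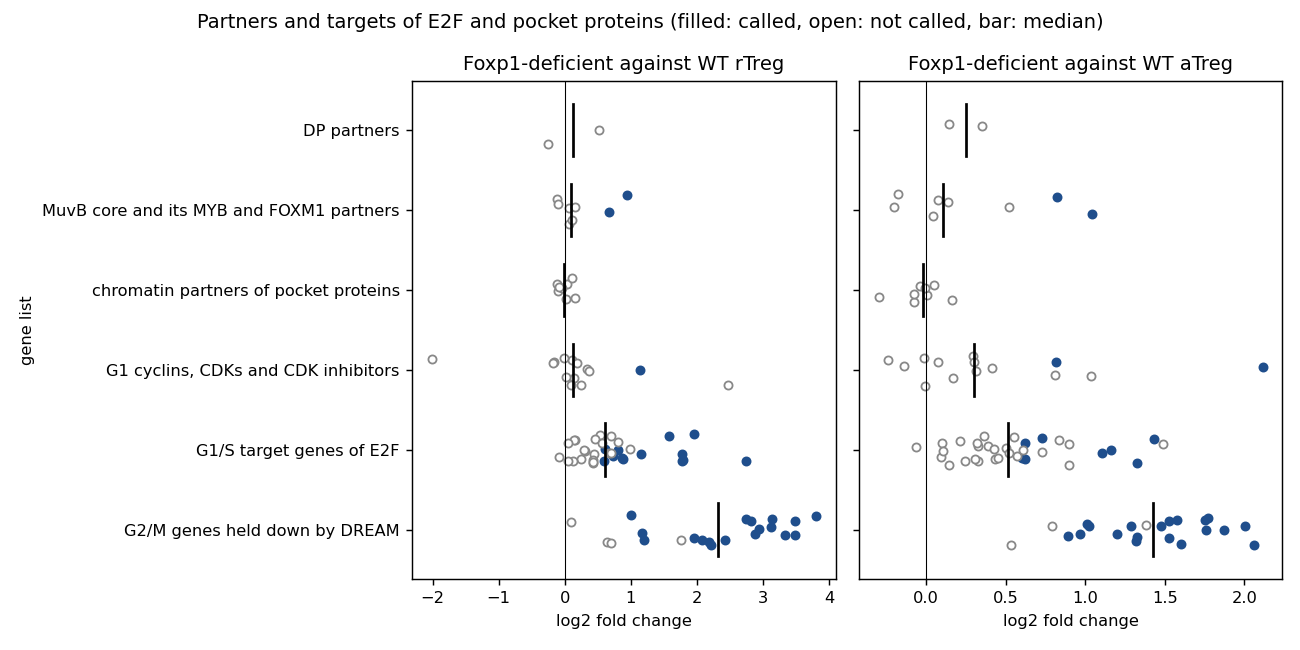
Log2 fold change between genotypes of each tested gene of the 6 partner and target lists, in rTreg cells on the left and aTreg cells on the right (filled points called, bars list medians, vertical spread within a list without meaning). The G1/S and G2/M lists have medians of 0.60 and 2.32 for rTreg and 0.51 and 1.43 for aTreg cells.

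Between WT aTreg and WT rTreg cells, 9 of 34 G1/S and 16 of 22 G2/M genes were called higher, where 9.50% of all genes tested were, and 0 lower, with medians of 0.68 and 2.25. In Foxp1-deficient mice the numbers called higher were 6 of 34 and 13 of 22, where 11.3% of all genes were, with medians of 0.50 and 1.25, and the latter count was 7 without the replicate block and the former 3 without Foxp1-deficient rTreg replicate 2. The granulocyte and precursor markers given above moved with genotype in rTreg cells, and their part in the counts of these lists was not tested.

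The genes whose pattern was most like that of E2f1, E2f2 and Rbl2 were taken by Pearson r of log2 CPM over the 8 libraries, among 13165 genes. The values are descriptions over 8 libraries that share groups and replicate numbers. Closest to E2f1 were Ttll12 (0.991), the proteasome subunit Psmd2 (0.985) and Cdk4 (0.981), the kinase that phosphorylates pocket proteins. Cdk4 itself ranged only from 91.0 to 107 CPM. Closest to E2f2 were Porcn (0.975), Mybl2 (0.974) and the lysosomal transporter Slc17a5 (0.968). Porcn had 0 to 10 counts in each WT and Foxp1-deficient rTreg and WT aTreg library and 74 and 71 counts in the Foxp1-deficient aTreg libraries, so its r rests largely on values near the floor. Closest to Rbl2 were Pqlc3 (0.996), Plscr4 (0.996) and Prdm1 (0.995), which encodes the transcriptional repressor Blimp-1 known from effector Treg cells. Plscr4 had 0 to 2 counts in each rTreg library and 14 to 69 in each aTreg library, so the same holds for its r.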

How the data were processed

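RNA sequencing of 2 libraries in each of 4 groups was used as deposited. Before deposit, the authors ran FastQC and trim_galore on the reads, dropped duplicates (Picard) and assigned the rest to genes (htseq-count). The deposited counts are whole reads per gene with no normalization. The submitters' processing notes name HISAT2 2.0.5, HTSeq and mm10. The deposited FPKM values, by the authors, equal the count divided by the library total and by 1 length per gene (relative spread at most 1.5e-04 over 15495 genes), so they were used for levels alone. Removal of duplicates without molecular identifiers can lower the counts of abundant genes, and intervals and floors cover counting error only.

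The test was edgeR 4.0.16 under R 4.3.3 (TMM, filterByExpr with a minimum count of 10, glmQLFit and glmQLFTest, all 8 libraries, group means with the replicate number as a block). The filter kept 14540 and left out 13054 genes. The block follows the paired analysis in the authors' methods, which name a batch effect. Deviations from group means correlated between same-numbered libraries at 0.355 to 0.597 over the 6 pairs of groups (across genes, which are not independent replicates). Alternatives were no replicate block, limma-voom (limma 3.58.1), no filter, DESeq2 1.42.0, edgeR with median-of-ratios scaling, the 4 libraries of a comparison alone, and leaving out each library. The code was tested on simulated counts.

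The members and lists were chosen with earlier results of these data known. The text names all members, both DP partners, from each other list up to 4 called genes with the largest change in Foxp1-deficient against WT rTreg cells, 3 genes most like E2f1, E2f2 and Rbl2, and Foxp1. Results for 2 further genes are not reported here. Of 27594 identifiers, 27479 were in GENCODE M21, which gave coordinates, and promoters were from RefSeq on GRCm38.p6. The marker lists of natural killer cells (1.81 to 5.83 CPM) and of CD8 T cells and thymocytes (6.47 to 18.7 CPM) are given here only.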

Additional observations from a re-analysis of the deposited data

Results flagged for a closer look

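Among the members, Foxp1 and the genes of the partner and target lists, 3 genes passed edgeR's interaction term, all outside the family. Of all genes tested, 0.330% passed it. The term is given as the genotype effect in aTreg minus that in rTreg cells on the log2 scale. It was -0.92 for Foxp1 (adjusted p = 0.0477), whose whole-gene count fell in aTreg cells and did not pass the test in rTreg cells. Of the G2/M list, it was -1.22 for Mki67 and -1.61 for Top2a (adjusted p = 0.0271 for both, named after their values were seen), so the increase without Foxp1 was smaller in aTreg than in rTreg cells for these genes. None of the 3 was called without the replicate block, nor without any 1 of the 4 rTreg libraries or Foxp1-deficient aTreg replicate 2. Foxp1 was also lost with median-of-ratios size factors (adjusted p = 0.0519) and without WT aTreg replicate 2 (0.0986), Mki67 by limma-voom (0.0523), and Top2a without Foxp1-deficient aTreg replicate 1 (0.0575). Of 13 alternatives, Foxp1 was called in 5, with adjusted p from 3.8e-06 to 0.288 over all 13, and Mki67 and Top2a in 6 each, with adjusted p from 2.4e-06 to 0.763 and from 8.1e-08 to 0.530.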

How the results depend on the processing

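The counts of members depended on the replicate block and on single libraries. With no replicate block, members called between genotypes went from 5 to 2 in rTreg and from 4 to 0 in aTreg cells, while calls between subsets stayed within 1.5 times. In aTreg cells DESeq2 called 2 and the 4 libraries of the comparison alone 1, and for the interaction DESeq2 and no filter on low counts each called 2 where the other edgeR fits called 0. The cause was not tested. When a library was left out, members called ranged from 1 to 5 (rTreg genotype), 0 to 3 (aTreg genotype), 2 to 4 (WT subsets), 1 to 3 (Foxp1-deficient subsets) and 0 (interaction). The fits with a library left out have 7 libraries and fewer degrees of freedom, and the lone library of a group is assumed to vary like the others. Over all genes, calls higher and lower between genotypes went from 421 and 393 to 159 and 107 in rTreg cells, and from 344 and 242 to 43 and 34 in aTreg cells, without the block. In aTreg cells the 4 libraries alone gave 216 and 133, and no filter gave 583 and 452. No filter gave 607 lower genes in rTreg cells, and no block gave 245 lower genes between WT subsets, against 411. Interaction calls (27 higher and 21 lower) were 0 without the block, 167 and 112 by DESeq2, and 359 and 214 with no filter. G1/S genes called between genotypes in aTreg cells (8) were 13 with no filter and 4 from the 4 libraries alone. Leaving E2f4 out of the repressive sum turned the log2 ratio of activating to repressive factors positive in all 4 groups (1.06, 2.43, 1.54 and 2.12). The highest group was then Foxp1-deficient rTreg instead of Foxp1-deficient aTreg cells. The differences that changed sign were near 0 and not called. With no filter these were E2f1 (0.012) and E2f4 (0.0050) between Foxp1-deficient subsets and E2f4 (0.0098) in the interaction. With a library left out they ranged from -0.098 to 0.10 (E2f4) and -0.12 to 0.023 (Rbl1) between WT subsets, from -0.11 to 0.061 (E2f1) and -0.076 to 0.022 (E2f4) between Foxp1-deficient subsets, and from -0.12 to 0.080 for E2f4 in the interaction. DESeq2 gave no adjusted p for E2f8 between WT subsets. At this depth E2f7 and E2f8 rest on 3 to 5 counts in each WT rTreg library.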
